A study of Mus musculus with 6 samples.

Results

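Insulin receptor signalling and glucose handling was described through 10 genes, Insr, Irs1, Irs2, Pik3r1, Akt1, Akt2, Foxo1, Slc2a4, Pck1 and Socs1, chosen by name and found through the RefSeq accession of each probe. They had 16 probes, all of which passed the filter on dim probes, and they are 10 of 25777 genes and transcripts tested. The cells were the stromal vascular fraction of fat from the mesentery, that is, the cells left when adipocytes are removed after collagenase digestion, from male mice of the strain C57BL/6JHamSlc-ob/ob, which lack working leptin and become obese. The propolis group received an ethanol extract of Brazilian propolis, a resin made by bees, at 100 mg/kg into the peritoneum 2 times a week for 12 weeks. The vehicle group received a dilute mix of DMSO and ethanol on the same schedule. Both groups carry the ob/ob mutation, no lean mice were analysed here, and each group has 3 samples named as biological replicates, with the number of mice in each and their age not given in the sources used here. Each sample was read on 1 array with 1 dye.

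Insulin binds its receptor, a tyrosine kinase, which phosphorylates the insulin receptor substrates. These recruit phosphoinositide 3-kinase, whose lipid product activates the AKT kinases. AKT sends the glucose transporter GLUT4 to the surface of fat and muscle cells and keeps FOXO1 out of the nucleus, while suppressors of cytokine signalling act on the receptor and its substrates as brakes. In obesity this chain works less well in fat, liver and muscle. Phosphorylation and protein position carry most of the signal, and the arrays measured RNA only.

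All values are log2 intensities relative to the array's 75th percentile, so 0 is that percentile and a step of 1 is a change of 2-fold. Each ± is an SD with n = 3, each difference is propolis minus vehicle, and p-values come from limma fitted over all genes with Benjamini-Hochberg adjustment. The 75th percentile of intensity was 511.6 to 729.0 in the propolis arrays and 459.4 to 621.1 in the vehicle arrays, and 61.1% to 66.7% of spots on an array stood well above background. Propolis 1, propolis 2, vehicle 1 and vehicle 2 were on slide 1, and propolis 3 and vehicle 3 were on slide 2. The slides were scanned on different days, so slide and scan day cannot be told apart. The labelled stromal fraction showed its progenitor markers at a mean of 5.90 to 6.16 in propolis and 5.87 to 6.00 in vehicle, with all 8 above background on every array. In vehicle 3 the mean of 10 intestinal epithelial markers was 4.88, against -3.57 to -0.48 in the other arrays, and in vehicle 2 the mean of 9 pancreatic acinar markers was 4.56, against -4.53 to -3.48.

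The upstream sequences of Irs1, Irs2 and Pck1 are shown because these 3 genes are textbook targets of the hormonal control that the pathway serves. Each is the 250 bases before a transcription start in RefSeq, build GRCm38.p6, printed 5′ to 3′ on the gene's strand. Capitals mark matches to any of 5 short motifs, searched on both strands. The motif GTAAACA, the motif CAAAACA and the motif GTAAATA are forms that FOXO factors bind, and the motif TGACGTCA and the motif TTACGTCA are forms of the cyclic AMP response element. TTACGTCA was added after the other 4 had been searched and had given no match for Pck1.

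Irs1, chr1:82291440-82291689, minus strand: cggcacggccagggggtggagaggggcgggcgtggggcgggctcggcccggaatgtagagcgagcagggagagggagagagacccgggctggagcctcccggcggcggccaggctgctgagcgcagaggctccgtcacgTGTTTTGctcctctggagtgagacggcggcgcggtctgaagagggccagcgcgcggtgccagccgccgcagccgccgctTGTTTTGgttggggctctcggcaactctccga

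Irs2, chr8:11008930-11009179, minus strand: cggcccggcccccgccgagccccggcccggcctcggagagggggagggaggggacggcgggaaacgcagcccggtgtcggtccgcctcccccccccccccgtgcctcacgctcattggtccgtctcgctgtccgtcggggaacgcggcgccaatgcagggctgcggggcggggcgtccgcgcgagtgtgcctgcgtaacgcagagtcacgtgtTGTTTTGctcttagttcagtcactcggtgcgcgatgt

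Pck1, chr2:173152823-173153072, plus strand: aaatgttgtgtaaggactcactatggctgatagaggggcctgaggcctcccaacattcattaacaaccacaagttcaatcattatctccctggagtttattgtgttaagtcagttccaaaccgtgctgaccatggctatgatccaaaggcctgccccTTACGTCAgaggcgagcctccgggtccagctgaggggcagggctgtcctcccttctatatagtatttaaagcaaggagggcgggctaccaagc

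The Irs1 window holds TGTTTTG, the reverse complement of CAAAACA, beginning 111 and 32 bases before the start. The Irs2 window holds it 1 time, beginning 37 bases before the start. The Pck1 window holds TTACGTCA, beginning 93 bases before the start. Over 32851 mouse promoters of this length, 5.56% hold CAAAACA, 3.17% GTAAACA, 2.73% GTAAATA, 1.55% TGACGTCA and 0.448% TTACGTCA. RefSeq promoters were matched for 8 of the 10 genes, 13 windows in all, and not for Insr and Slc2a4. Of the other windows, 1 of Akt1 holds GTAAACA and 1 of Akt2 holds GTAAATA. These matches describe letters only, and no binding was measured.

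Of the 10 genes, 0 changed at an adjusted p under 0.05, against 0.834% of all genes, and 0 of their 16 probes did so in a fit over all probes, against 0.727% of probes. Likewise 0 of the genes had an unadjusted limma p under 0.05, against 11.7% of all genes. By mean, 5 were higher after propolis (Insr, Irs1, Akt1, Akt2 and Socs1) and 5 were lower (Irs2, Pik3r1, Foxo1, Slc2a4 and Pck1), where 50.4% of all genes were lower. Their median difference was -0.03, against a median of 0.00 over all genes. Groups did not overlap for 2 of them, Akt2 and Socs1, or 20% of the members, against 17.4% of all genes. Both were higher after propolis, and 10.8% of all genes were higher without overlap. The members' share was near the background. For 7 genes the 95% interval of the difference lay within a change of 2-fold in either direction, as it did for 57.0% of all genes. It reached past that for Irs2, Slc2a4 and Pck1.

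**Figure D1:**
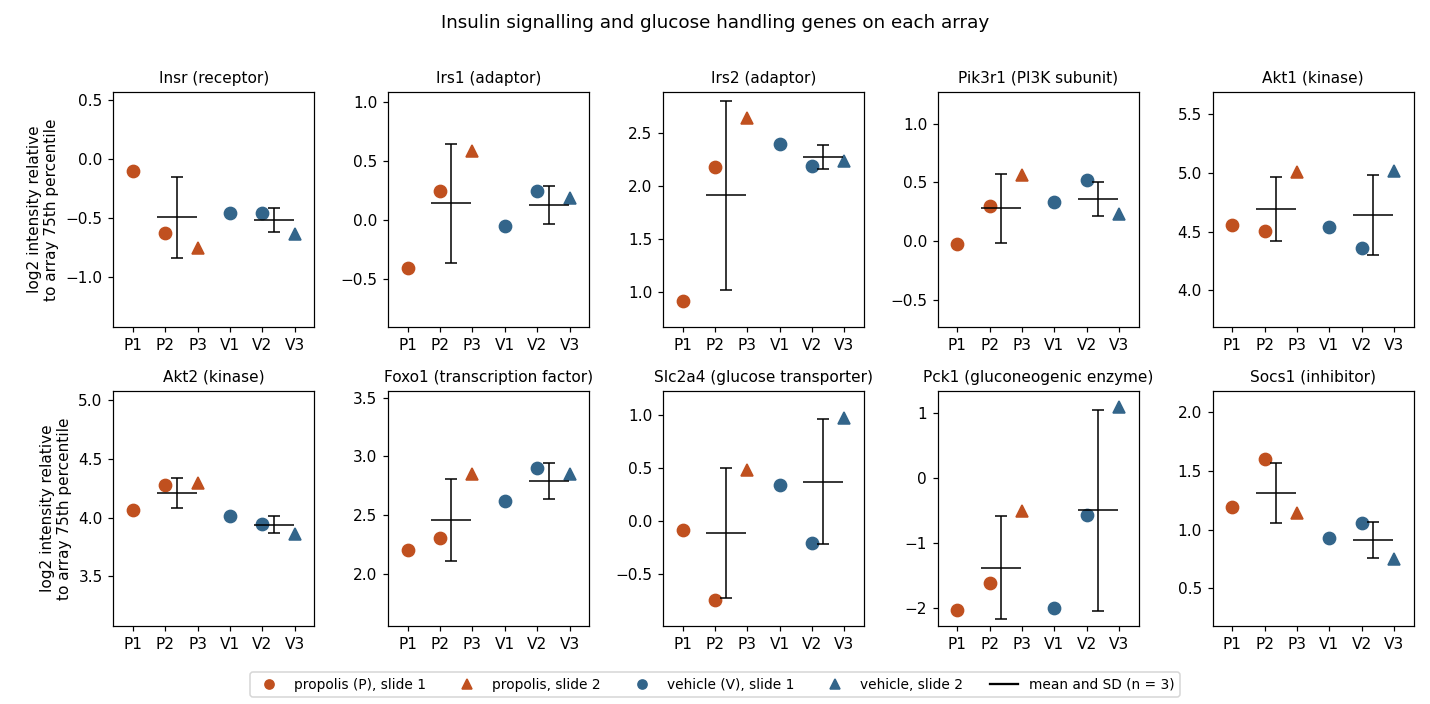
Log2 intensity relative to the array's 75th percentile (vertical axes, each with its own range) for the 10 genes on every array, propolis (P) left of vehicle (V), with round points for slide 1, triangles for slide 2, and a line with a bar for the mean and SD of 3 arrays. Akt2 and Socs1 are the genes whose groups do not overlap, and propolis 1 is the lowest array for Irs1, Irs2, Pik3r1, Foxo1 and Pck1.

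Insr encodes the insulin receptor. Its brightest probe read -0.10, -0.63 and -0.75 in propolis 1, 2 and 3, against -0.46, -0.46 and -0.63 in vehicle 1, 2 and 3. The propolis arrays lay on both sides of the vehicle arrays, with propolis 1 the highest and propolis 3 the lowest. The difference was 0.02 (95% interval -0.51 to 0.56, limma adjusted p = 0.980). The other probes of Insr did not move together. A_55_P2172566 read -1.35, -2.43 and -2.62 in propolis, against -2.27, -2.31 and -2.54 in vehicle, and A_55_P2173927 read -3.34, -2.49 and -1.75, against -2.17, -1.85 and -2.06. So propolis 1 was the highest array for the first of these probes and the lowest for the second, and no single direction can be given for Insr.

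Irs1 and Irs2 encode the main docking proteins that the receptor phosphorylates. Irs2 read 0.92, 2.18 and 2.64 in propolis, against 2.39, 2.18 and 2.23 in vehicle. Propolis 1 stood more than 1 log2 unit below every other array, while propolis 3 was the highest. The propolis mean was 1.91 ± 0.89 and the vehicle mean 2.27 ± 0.11, a difference of -0.36 (95% interval -1.41 to 0.69, limma adjusted p = 0.816). Without propolis 1 the difference was 0.14, so this array set its sign. Irs1 read -0.41, 0.25 and 0.58 in propolis, against -0.06, 0.24 and 0.19 in vehicle, with a difference of 0.02 (interval -0.67 to 0.70). Propolis 1 was again the lowest array and propolis 3 the highest, and the dimmer probe of Irs1, A_52_P171212, had the same order at its ends, -5.84 in propolis 1 and -3.85 in propolis 3. This dimmer probe was well above background on 5 arrays only. Its propolis 1 value lay below the lowest signal well above background on that array, -5.82. In propolis 2 and propolis 3 it read -4.21 and -3.85, above -4.45, -4.26 and -4.29 in vehicle. Its difference was -0.30, so the 2 probes of Irs1 disagree in sign, but that propolis 1 value set the sign of the dimmer one. Within slide 1 both genes had a lower propolis mean, by -0.17 for Irs1 and -0.74 for Irs2. Within slide 2 both were higher, by 0.40 for each.

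Pik3r1 encodes the p85 alpha regulatory subunit of phosphoinositide 3-kinase. It read -0.02, 0.30 and 0.56 in propolis, against 0.34, 0.52 and 0.23 in vehicle. Propolis 1 was the lowest array and propolis 3 the highest, and the difference was -0.08 (95% interval -0.59 to 0.43, limma adjusted p = 0.921). Without propolis 1 it was 0.07.

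Akt1 and Akt2 encode the kinases at the centre of the chain, and loss of Akt2 in mice impairs insulin-driven glucose uptake. Akt2 read 4.06, 4.28 and 4.29 in propolis, against 4.01, 3.95 and 3.86 in vehicle. All 3 propolis arrays stood above all 3 vehicle arrays, by a small margin between propolis 1 and vehicle 1. The means were 4.21 ± 0.13 in propolis and 3.94 ± 0.07 in vehicle, a difference of 0.27 or 1.21-fold (95% interval -0.12 to 0.66, limma adjusted p = 0.617). A further probe, A_55_P2066518, gave 0.31 with overlapping groups. The dimmest Akt2 probe, A_55_P2066523, read -1.68, -1.27 and 0.59 in propolis, against -0.46, -0.28 and 0.21 in vehicle, a difference of -0.61. So 2 of the 3 Akt2 probes had a higher propolis mean and 1 a lower one, and with all 3 averaged the difference was -0.01.

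Akt1, the more widely expressed of the 2 kinases, read 4.56, 4.51 and 5.01 in propolis, against 4.54, 4.36 and 5.02 in vehicle. The arrays of slide 2, propolis 3 and vehicle 3, were the highest in their groups and differed from each other by -0.01. Over all arrays the Akt1 difference was 0.05 (interval -0.55 to 0.65).

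**Figure D2:**
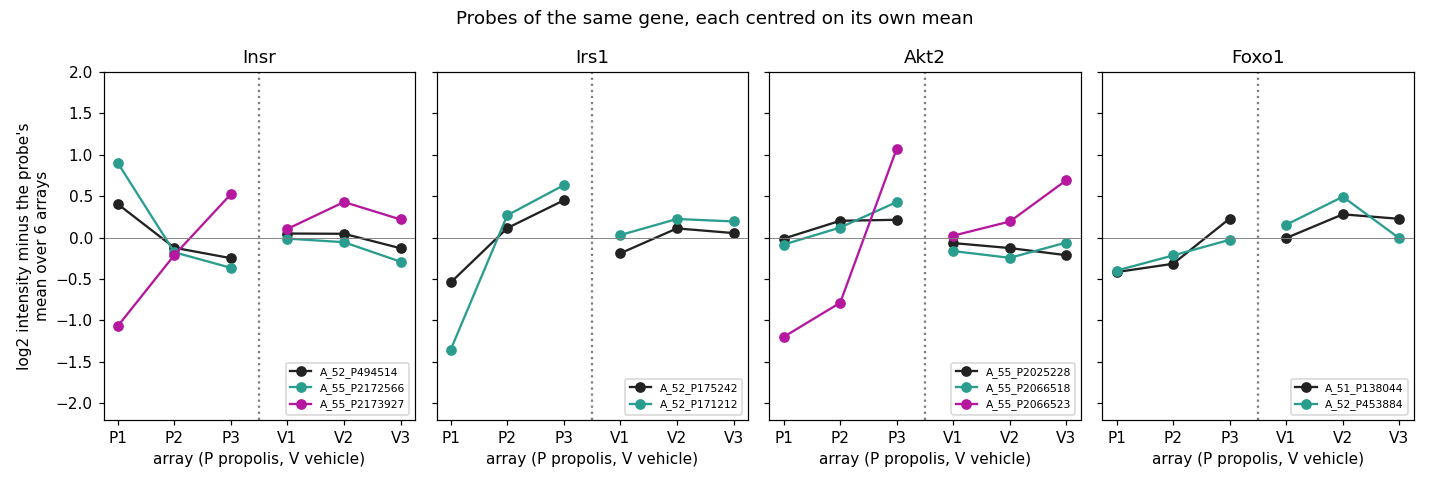
Log2 intensity of every probe of Insr, Irs1, Akt2 and Foxo1 minus that probe's own mean over 6 arrays (vertical axis), by array, propolis (P) left of vehicle (V), with 1 line per probe. The Insr probes spread in opposite directions in propolis 1, and the dimmest Akt2 probe departs from the other 2, while both Foxo1 probes are lowest in propolis 1.

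Foxo1 encodes the transcription factor that AKT holds out of the nucleus. It read 2.21, 2.31 and 2.85 in propolis, against 2.62, 2.90 and 2.85 in vehicle. Propolis 1 and propolis 2 lay below every vehicle array, and propolis 3 lay among them. The means were 2.46 ± 0.35 in propolis and 2.79 ± 0.15 in vehicle, a difference of -0.33 or 1.26-fold (95% interval -0.88 to 0.22, limma adjusted p = 0.666). The second probe, A_52_P453884, read 1.47, 1.65 and 1.84 in propolis, against 2.02, 2.36 and 1.86 in vehicle. Its groups did not overlap, as held for 16.8% of all probes, and its difference was -0.43 (limma adjusted p = 0.535 over all probes). Both Foxo1 probes differed on slide 1, by -0.50 and -0.63, and hardly on slide 2, by 0.00 and -0.02.

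Slc2a4 encodes GLUT4, the transporter that insulin moves to the surface of fat and muscle cells. It read -0.08, -0.74 and 0.49 in propolis, against 0.34, -0.20 and 0.97 in vehicle. The arrays of both groups were spread alike and overlapped, with vehicle 3 the highest and propolis 2 the lowest. The means were -0.11 ± 0.61 in propolis and 0.37 ± 0.59 in vehicle, a difference of -0.48 or 1.40-fold (95% interval -1.48 to 0.52, limma adjusted p = 0.741). This probe was printed as 10 spots on each array, and the SD among these spots was 0.04 to 0.07, which measures spotting and scanning only. The difference was -0.48 within slide 1 and -0.49 within slide 2. With single arrays left out it ran from -0.78 without propolis 3 to -0.17 without propolis 2, and it was -0.77 without vehicle 2 and -0.18 without vehicle 3.

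Adipocyte markers were, like Slc2a4, lower by mean after propolis. The mean of 13 such markers was -0.44 to 0.64 in propolis, against 0.54 to 1.76 in vehicle. All 13 had a lower propolis mean, with 0 called and 6 at an unadjusted limma p under 0.05. The marker mean and Slc2a4 were both highest in vehicle 3, at 1.76 and 0.97. Among the propolis arrays both were highest in propolis 3, at 0.64 and 0.49. In other arrays the orders differed. The marker mean was lowest in propolis 1, at -0.44, where Slc2a4 read -0.08. In vehicle 2 the marker mean was 1.17, where Slc2a4 read -0.20. In bulk RNA fewer cells of a type and less RNA per cell cannot be told apart, and the part of adipocyte RNA in the Slc2a4 values was not tested. Of 6 skeletal muscle markers, Acta1, Tnnt3 and Actn3 were above background on all 6 arrays, Mylpf on 1, and Ckm and Myh4 on none. The mean of all 6 was -5.19 to -4.50 in propolis, against -4.68 to -4.05 in vehicle, and takes in the values not above background. Of the 3 that entered the fit, 2 had a higher and 1 a lower propolis mean. Acta1 read up to 1.07, in propolis 2, and Tnnt3 and Actn3 lay between -4.10 and -2.13.

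Pck1 encodes cytosolic phosphoenolpyruvate carboxykinase, which makes glucose precursors in liver, kidney and intestine and glycerol for triglyceride in fat cells. It read -2.04, -1.62 and -0.50 in propolis, against -2.01, -0.57 and 1.10 in vehicle. Vehicle 3 was the highest array, and vehicle 1 was as low as propolis 1. The means were -1.39 ± 0.79 in propolis and -0.49 ± 1.55 in vehicle, a difference of -0.89 or 1.86-fold (95% interval -2.85 to 1.07, limma adjusted p = 0.753). With single arrays left out the difference ran from -1.65 without vehicle 1 to -0.096 without vehicle 3, and it was -1.34 without propolis 3. It was 0.62 without vehicle 2 and vehicle 3 together, which leaves vehicle 1 alone in its group. Vehicle 2 held the acinar markers and vehicle 3 the intestinal ones. Those arrays also had the highest means of the 13 adipocyte markers, 1.17 and 1.76.

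G6pc and Fbp1, gluconeogenic enzymes singled out after their values were seen, were also highest in vehicle 3. G6pc read -3.77, -4.08 and -2.89 in propolis, against -3.87, -4.18 and -0.13 in vehicle. Fbp1 read -2.32, -2.79 and -0.49 in propolis, against -2.78, -3.28 and 1.55 in vehicle. Without vehicle 3 their differences were 0.44 for G6pc and 1.16 for Fbp1, where over all arrays they were -0.85 and -0.37. G6pc and Fbp1 were lowest in vehicle 2, the array with the acinar markers. Propolis 3 had the lowest intestinal mean, -3.57, and the highest propolis values of Pck1, G6pc and Fbp1. Liver markers, 4 in number, had their highest mean in propolis 3, at -0.10, followed by vehicle 3, at -0.30. Elsewhere that mean was -2.84 or lower. The 2 highest means rested on different genes. In vehicle 3 Apoa1 read 4.45, Serpina1a 0.92, Ttr -2.71 and Alb -3.86. In propolis 3 Serpina1a read 2.25, Alb 1.42, Ttr -0.91 and Apoa1 -3.15. The part of intestinal, acinar, liver or adipocyte RNA in the values of Pck1, G6pc and Fbp1 was not tested.

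**Figure D3:**
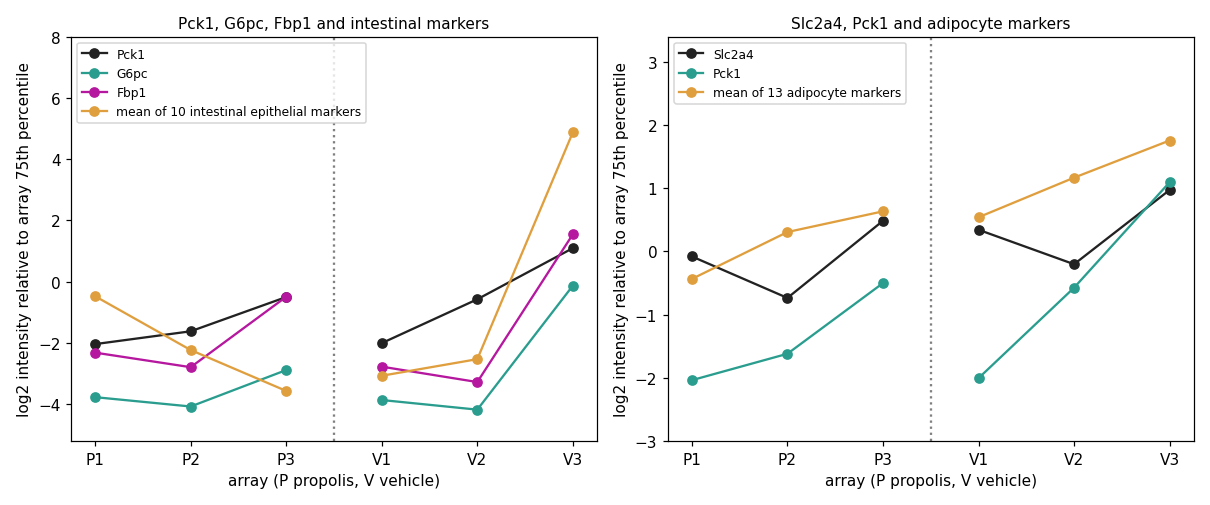
Log2 intensity relative to the array's 75th percentile (vertical axes) by array, propolis (P) left of vehicle (V). The left panel shows Pck1, G6pc and Fbp1 with the mean of 10 intestinal markers, all 4 highest in vehicle 3, and the right panel shows Slc2a4 and Pck1 with the mean of 13 adipocyte markers, which reaches 0.64 in propolis 3 and 1.76 in vehicle 3.

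Socs1 encodes a suppressor of cytokine signalling that binds the insulin receptor and promotes loss of its substrates. It read 1.19, 1.60 and 1.14 in propolis, against 0.93, 1.05 and 0.75 in vehicle. Every propolis array stood above every vehicle array, with propolis 3 closest to the vehicle range. The means were 1.31 ± 0.26 in propolis and 0.91 ± 0.15 in vehicle, a difference of 0.40 or 1.32-fold (95% interval -0.08 to 0.88, limma adjusted p = 0.529). Socs1 had the lowest p of the 10 genes, at rank 4399 of 25777. The difference was 0.41 within slide 1 and 0.38 within slide 2. With arrays weighted by their fit, Socs1 alone of the 10 passed, at a limma adjusted p = 0.048, but that fit called 3231 of all 25777 genes. When the array percentile was taken over spots, the limma adjusted p of Socs1 was 0.055, and 3200 genes were called.

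**Figure D4:**
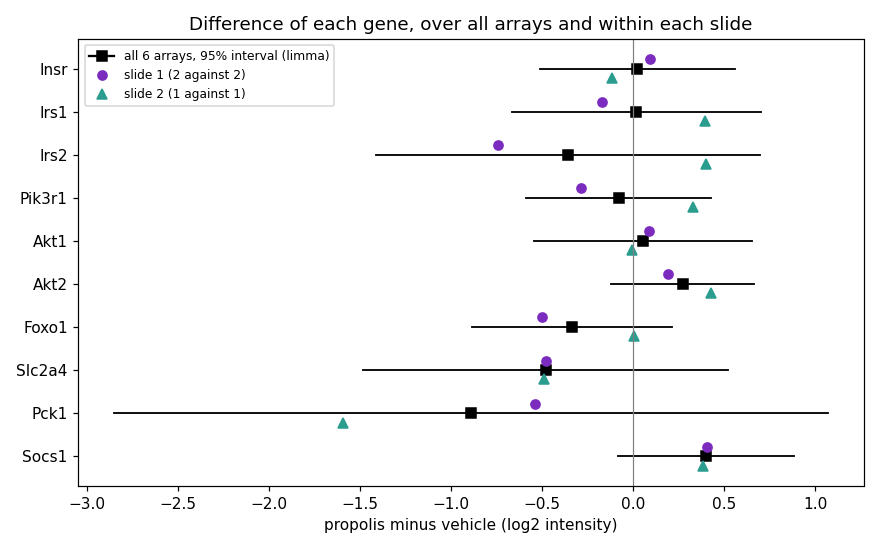
Propolis minus vehicle in log2 intensity (horizontal axis) for each gene, with squares and lines for the limma difference and its 95% interval over all 6 arrays, circles for slide 1 and triangles for slide 2. Every interval crosses 0, and Slc2a4 and Socs1 differ by nearly the same amount on both slides while Irs1, Irs2 and Pik3r1 have opposite signs.

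Arrays rather than groups held many of the extremes. Propolis 1 was the lowest array for 5 of the 10 genes, against 24.5% of all genes, and propolis 3 was the highest for 4 of them (Irs1, Irs2, Pik3r1 and Akt2), against 18.5% of all genes. Vehicle 3 was the highest for 3 (Akt1, Slc2a4 and Pck1), against 14.9% of all genes. Within both slides 4 genes kept 1 sign, Akt2 and Socs1 higher and Slc2a4 and Pck1 lower, while 53.1% of all genes did so.

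Of 62 further genes of the pathway, listed by role, 61 were measured and Foxo4 was not. Of these, 0 passed the adjusted threshold and 6 had an unadjusted limma p under 0.05, 2 higher and 4 lower, where 7.24% of all genes were higher and 4.48% lower at that limit. By mean 32 were higher and 29 lower, with a median difference of 0.01, and groups did not overlap for 7 of them, or 11.5%, below the 17.4% of all genes.

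Among the receptors, Insrr, which encodes a receptor-like kinase that responds to alkaline surroundings, read 0.48, 2.45 and 1.63 in propolis, against -1.01, -0.32 and -1.78 in vehicle. The gap was 2.56 or 5.88-fold, the largest of the pathway genes, at a limma adjusted p = 0.143. Markers of mesothelium, the lining of the peritoneum, stood higher too, with a mean of 1.90 to 2.85 in propolis against -0.14 to 1.19 in vehicle, 7 of 7 higher and 2 called, and their part in the Insrr values was not tested. Igf1r, the receptor for insulin-like growth factor 1, read 0.79, 1.28 and 1.34 in propolis, against 1.59, 1.55 and 1.66 in vehicle (difference -0.46, limma adjusted p = 0.456). The groups of both receptors were apart on every array.

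Among the adaptors, Grb14, an inhibitor of the insulin receptor kinase, read -0.62, -0.72 and -1.71 in propolis, against -2.53, -2.29 and -2.15 in vehicle (difference 1.31, limma adjusted p = 0.174). Cbl, a ubiquitin ligase, read -0.98, -0.78 and -0.35 in propolis, against -0.10, -0.01 and -0.30 in vehicle (difference -0.57, adjusted p = 0.389). In both genes propolis 3 was the array nearest to vehicle. Of the kinase subunits, Pik3cb, the catalytic p110 beta, read -0.31, -0.55 and -0.60 in propolis, against 0.21, -0.15 and 0.20 in vehicle (difference -0.58, limma adjusted p = 0.305).

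Among phosphatases and inhibitors, Trib3, a pseudokinase reported to bind AKT and hold it back in mouse liver, read 0.33, 0.25 and 0.52 in propolis, against 1.06, 1.05 and 1.28 in vehicle. Both groups were tight and far apart, with means of 0.37 ± 0.14 in propolis and 1.13 ± 0.13 in vehicle, a difference of -0.77 over all arrays, -0.77 within slide 1 and -0.76 within slide 2. It had the lowest adjusted p of the pathway, 0.136 by limma. Phlpp1, a phosphatase that acts on AKT, read -1.36, -1.42 and -1.14 in propolis, against -0.71, -1.11 and -0.58 in vehicle (difference -0.51, limma adjusted p = 0.418). Propolis 3 and vehicle 2 nearly met.

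In the other role groups no gene had groups that were apart. Of 11 downstream kinases 5 were higher and 6 lower by mean. Of the 11, 10 differed by less than 0.25, or 90.9%, as did 50.4% of all genes and 55.7% of the pathway genes. Of 10 genes of glucose uptake and GLUT4 traffic 4 were higher and 6 lower, and of 7 genes of gluconeogenesis and glycogen 3 were higher and 4 lower. Foxo3 and Ppargc1a, the factors and co-regulators measured, were both lower by mean, at -0.38 and -1.11, with overlapping groups. They are named after their values were seen. Foxo3 read -4.95 to -3.81 and Ppargc1a -4.65 to -1.33 over the arrays, so both were dim. The lowest signal well above background was -5.82 to -5.26 by array. Both were highest in vehicle 3, and without it their differences were -0.21 for Foxo3 and -0.31 for Ppargc1a.

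**Figure D5:**
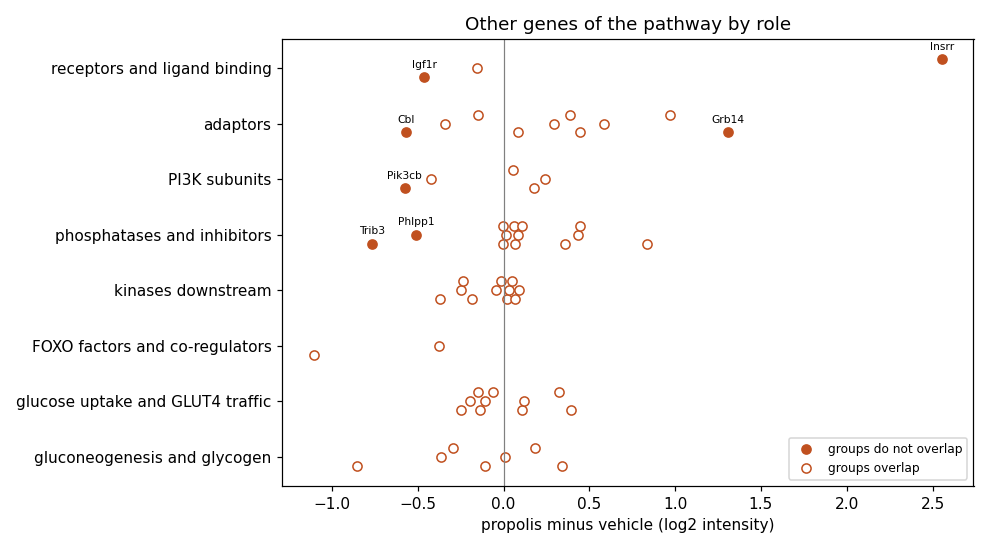
Propolis minus vehicle in log2 intensity (horizontal axis) for the 61 measured pathway genes in rows by role, with filled points where the groups do not overlap. The 7 filled points are Insrr and Grb14 to the right of 0 and Igf1r, Cbl, Pik3cb, Trib3 and Phlpp1 to the left.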

How the data were processed

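Per the file headers, the arrays were 1-colour Agilent arrays read with Feature Extraction 10.7.3.1, and the deposited scanner tables hold a background-corrected intensity, not normalized between arrays. The deposited series table holds log2 values whose 75th percentile lies near 0 on each array. It was used only as an alternative. Medians of its columns lay between -3.97 and -3.62, and its centring is known from the values alone.

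The processed signal was turned to log2, non-uniform spots were left out, the mean was taken over spots of a probe, and the 75th percentile over probes was then subtracted on each array. The percentile over spots was run first, and the version over probes was taken after both had been seen, since it follows the scale of the series table. A probe entered if well above background on at least 3 arrays, as 34786 of 55681 did, of which 4 were left out for want of a value. Each gene was represented by its brightest entering probe, and where probes disagree the report says so. Symbols came from RefSeq accessions matched to names of GRCm38.p6, for 27235 probes, whereas mm9 was the build of the array design. Upstream sequences are RefSeq's.

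The comparison used limma 3.58.1 under R 4.3.3 (lmFit and eBayes, no block), with Benjamini-Hochberg adjustment over 25777 genes, a threshold of 0.05, and 2.36 prior degrees of freedom. The procedure was tested on simulated data, and the outcome of that test is not given here. The smallest p of an exact permutation test is 0.1 with these 6 arrays, and the number of arrays limits the precision. As nothing says how many mice a sample holds, p-values measure spread between these samples.

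The 10 genes, the pathway lists and the marker lists were chosen with earlier results of these data known. Named are all 10, every pathway gene past the threshold, and in each role group the 2 of lowest p per direction whose groups do not overlap. Genes named outside this rule are said to be so where they appear. The 23 alternatives changed the scaling, background correction, dim-probe filter, spot flags, choice of probe, prior, weights of arrays, source table, blocks (slide or replicate number) and arrays included. Normexp used median signals, as mean signals were not in the columns used here.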

Additional observations from a re-analysis of the deposited data

How the results depend on the processing

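Across 23 alternatives Foxo1 and Slc2a4 stayed lower and Socs1 stayed higher, at -0.53 to -0.16, -0.82 to -0.17 and 0.25 to 0.56. The array percentile over spots, an alternative chosen after seeing the data, moved no difference of the 10 by more than 0.0141, and called 0 of them, 0 pathway genes and 211 of all genes, and 294 with the slide as a block, against 215 and 313 with the percentile over probes. It left 8 pathway genes without overlap, against 7.

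Array weights called 1 of the 10 (Socs1, 0.55), 7 pathway genes (Insrr, Grb10, Grb14, Cbl, Pik3cb, Phlpp1 and Trib3, Grb10 being named here after its values were seen) and 3231 of all genes, and with the spot percentile 0, 6 and 3200. These weights ran from 0.292 for propolis 3 to 8.28 for vehicle 1, so that vehicle 1 carried most of its group. In all other alternatives 0 of the 10 and 0 pathway genes passed. The count over all genes was 106 with no filter on dim probes, 73 with the replicate number as a block, 0 for slide 1 alone (5856 at an unadjusted limma p under 0.05), 0 without vehicle 2 and vehicle 3 together (1362 unadjusted), and 11 to 94 with single arrays left out (11 without vehicle 2 or propolis 2, 41 without vehicle 3, 53 without vehicle 1, 77 without propolis 1, 94 without propolis 3). With 1 vehicle array left, its spread is assumed to be that of the propolis arrays.

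Signs turned as follows, and the cause was not tested. Irs1 was -0.020 with normexp, -0.14 with all probes averaged and -0.17 on slide 1. Insr was -0.080 with all probes averaged, -0.094 with array weights, -0.11 with array weights and the spot percentile, and -0.038 without vehicle 2 and vehicle 3. Akt1 was -0.048 with quantile normalization, and Akt2 -0.0087 with all probes averaged. Pik3r1 was 0.077 with median scaling, which moved the median of all genes to 0.15. Pck1 was 0.15 with array weights and also with the spot percentile added, and 0.62 without vehicle 2 and vehicle 3. With single arrays left out, Insr ran from -0.17 to 0.15, Irs1 from -0.21 to 0.29, Irs2 from -0.72 to 0.14, Pik3r1 from -0.22 to 0.070, Akt1 from -0.11 to 0.24 and, with no turn of sign, Pck1 from -1.65 to -0.096.

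Deviations from the group means of arrays sharing a replicate number correlated across genes at 0.0359, 0.291 and 0.135. Arrays of differing number gave -0.310 to 0.206. These values did not settle whether the numbers pair the samples, and the main fit used no pairing. The replicate number as a block called 0 of the 10 genes, and 1 of them, Slc2a4, had an unadjusted limma p under 0.05.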

Other observations

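Marker lists not described above are given as counts by mean, with no account of their cause. All 10 intestinal and all 6 measured pancreatic acinar markers had a lower mean in propolis. So did all 6 B cell, all 7 T cell, all 6 endothelial and both measured islet markers, with 0 called in each list. Intestinal markers averaged 4.88 in vehicle 3 but -3.07 and -2.53 in vehicle 1 and 2, within the propolis range of -3.57 to -0.48. Acinar markers averaged 4.56 in vehicle 2 but -4.35 and -3.74 in vehicle 1 and 3, within the propolis range of -4.53 to -3.48. The measured islet markers, Ins1 and Ins2, were also highest in vehicle 2. Of 4 liver markers 3 were higher, of 7 macrophage markers 4, of 8 stromal progenitor markers 3 and of 3 skeletal muscle markers 2, again with 0 called. B cell markers averaged -3.76 to -2.48 in the propolis arrays, against -2.89 to 1.00 in the vehicle arrays, the highest being vehicle 2.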
